A study of Homo sapiens with 6 samples.

Results

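The genes examined were RUNX1, RUNX2, RUNX3, CBFB, RUNX1T1, CBFA2T2 and CBFA2T3, which encode the core-binding factor and the ETO family. They were chosen by symbol, and the Ensembl identifier of each was found once in the deposited table, so that all 7 of 29810 genes could be followed. The mRNA-seq of Kasumi-1 cells comprised 6 libraries, of which 3 came from control cells given the solvent DMSO and 3 from cells given 0.25 μM I3, a histone deacetylase (HDAC) inhibitor. Sample labels and methods give 48 h of incubation for all libraries, whereas a figure legend of the study gives a longer time. Kasumi-1 is a human AML line with the t(8;21) translocation and was the only line sequenced, so each value describes this line alone. Whether the libraries came from separate cultures is not stated in the labels, and p-values then measure only the spread between these libraries.

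RUNX1, RUNX2 and RUNX3 are the DNA-binding α subunits of core-binding factor, and CBFB encodes the β subunit, which does not bind DNA by itself but stabilizes the complex. RUNX1 is required for definitive hematopoiesis. RUNX1T1 (ETO, MTG8), CBFA2T2 (MTGR1) and CBFA2T3 (ETO2, MTG16) encode corepressors that bring NCoR, SIN3 and HDAC proteins to DNA-bound factors. The translocation joins the Runt domain of RUNX1 to nearly all of RUNX1T1. A gene-level value therefore counts the fusion transcript under RUNX1 by its 5′ part and under RUNX1T1 by its 3′ part, and the deposited table does not separate fusion from unrearranged transcripts.

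Promoter windows were available from RefSeq for 5 of the 7 genes, in 7 windows of 300 bases that run from 250 bases before to 50 bases after an annotated start (GRCh38.p14). The windows of CBFA2T2 and CBFA2T3 are shown because only these members had deposited values that did not overlap between control and I3. Of all tested genes, 9.70% did not overlap. The distal windows of RUNX2 and RUNX3 are shown because they hold TGTGGT, a form of the site that RUNX proteins recognize. Capitals mark each match of TGTGGT on either strand, which reads ACCACA on the opposite strand. No other form of the site was searched or marked.
RUNX2 distal window, chr6:45328080-45328379, plus strand: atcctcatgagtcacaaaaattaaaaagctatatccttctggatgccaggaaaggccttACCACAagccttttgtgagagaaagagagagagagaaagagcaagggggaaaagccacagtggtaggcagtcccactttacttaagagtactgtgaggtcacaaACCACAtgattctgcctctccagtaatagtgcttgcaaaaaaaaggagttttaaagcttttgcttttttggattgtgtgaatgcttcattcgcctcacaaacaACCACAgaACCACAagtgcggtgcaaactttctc
RUNX3 distal window, chr1:24964961-24965260, minus strand: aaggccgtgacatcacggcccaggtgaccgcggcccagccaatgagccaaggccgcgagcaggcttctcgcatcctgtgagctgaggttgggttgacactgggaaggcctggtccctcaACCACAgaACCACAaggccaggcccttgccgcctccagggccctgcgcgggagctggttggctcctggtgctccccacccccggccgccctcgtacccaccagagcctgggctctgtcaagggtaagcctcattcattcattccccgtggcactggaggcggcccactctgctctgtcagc
CBFA2T2 window, chr20:33562092-33562391, plus strand: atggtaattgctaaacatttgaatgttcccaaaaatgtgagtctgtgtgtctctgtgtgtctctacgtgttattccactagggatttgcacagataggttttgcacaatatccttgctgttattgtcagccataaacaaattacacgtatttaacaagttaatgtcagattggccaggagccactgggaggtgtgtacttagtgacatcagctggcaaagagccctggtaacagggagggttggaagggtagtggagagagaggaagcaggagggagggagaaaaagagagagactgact
CBFA2T3 window, chr16:88941301-88941600, minus strand: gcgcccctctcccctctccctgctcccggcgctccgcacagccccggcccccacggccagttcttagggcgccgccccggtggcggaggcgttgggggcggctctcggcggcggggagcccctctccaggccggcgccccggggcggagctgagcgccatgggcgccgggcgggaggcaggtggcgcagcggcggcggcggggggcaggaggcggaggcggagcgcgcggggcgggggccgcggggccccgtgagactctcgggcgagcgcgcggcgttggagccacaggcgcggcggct
Of 35116 windows in the RefSeq set, 13.1% hold the motif and 1.31% hold it at least 2 times. The distal RUNX2 window holds 4 matches, starting at -191, -87, 17 and 25 from the annotated start, and the distal RUNX3 window holds 2, at -131 and -123. Their longest shared run has 18 bases, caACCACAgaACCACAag, and only these 2 of the 35116 windows hold it. The second windows of RUNX2 and RUNX3 and the single windows of RUNX1, CBFA2T2 and CBFA2T3 hold no match. The RUNX1 window (chr21:34888650-34888949) lies inside the gene and not at its outermost annotated start. The same holds for the windows of CBFA2T2 and CBFA2T3. Other starts of these genes were not searched, so the absence of a match covers these windows only. A match is a description of the letters and not of binding. The CBFA2T3 window has a GC content of 83.0%, against 44.3% for that of CBFA2T2. Both are windows at internal starts, so these values do not describe the outermost promoters of the genes.

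The table gives FPKM, that is, fragments scaled by exon length and library size. Multiplied by exon length, the values were whole multiples of the worth of 1 read, which put the depth at 17500320 to 17798679 reads in control libraries and at 17794812 to 18193373 reads after I3. Libraries differed in how gene levels followed the GC content of transcripts. The rank correlation of a library's deviations with GC content was negative in control 1, I3 1 and I3 3 (-0.446 to -0.232) and positive in control 2, control 3 and I3 2 (0.262 to 0.446). This split is not a labelled batch. It was defined from the data after they were seen and is used below to describe the members' values, with no test between the signs. The myeloid markers KIT (198 to 225 FPKM) and MPO (7740 to 8610 FPKM) fitted the label. CD34 (28.9 to 38.8 FPKM) and CD33 (10.5 to 12.1 FPKM) were also present. CD38 was low (0.607 to 1.17 FPKM), below the endothelial marker PECAM1 (1.54 to 1.96 FPKM). Of 12 markers of other cell types, 9 were in the table, with a summed level of 32.3 to 34.7 FPKM in control libraries and 32.2 to 35.2 FPKM after I3. Most of this was EPCAM (28.2 to 31.6 FPKM), the other 8 were at most 1.96 FPKM, and CD3E, KRT8, COL1A1, CDH5 and HBA1 were listed at 0 in at least 1 library.

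To see how these genes responded to I3, log2(FPKM + 0.5) was compared with limma over the 12960 genes whose mean reached 0.5 FPKM, all 7 members among them. None of the 7 members passed an adjusted p of 0.05 with a log2 fold change of 0.58, and neither did any other gene (0 of 12960, 0%). The adjusted p of the members ranged from 0.942 to 0.999. At the same fold threshold but without adjustment, 0 of the 7 members and 1.40% of all tested genes passed. Without adjustment and without a fold threshold, 1 member (CBFA2T3) had a p under 0.05, where 4.93% of all tested genes (639) did. The median log2 fold change was 0.00752 over the members and 0.0107 over all tested genes. CBFA2T2 and CBFA2T3 were the only members whose I3 libraries did not overlap with the control libraries, where 9.70% of all tested genes did not overlap. They lay in opposite directions, CBFA2T2 above the controls (as 5.06% of tested genes) and CBFA2T3 below them (as 4.64%). In bulk RNA, fewer cells that express a gene and less RNA per cell cannot be told apart.

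**Figure D1:**
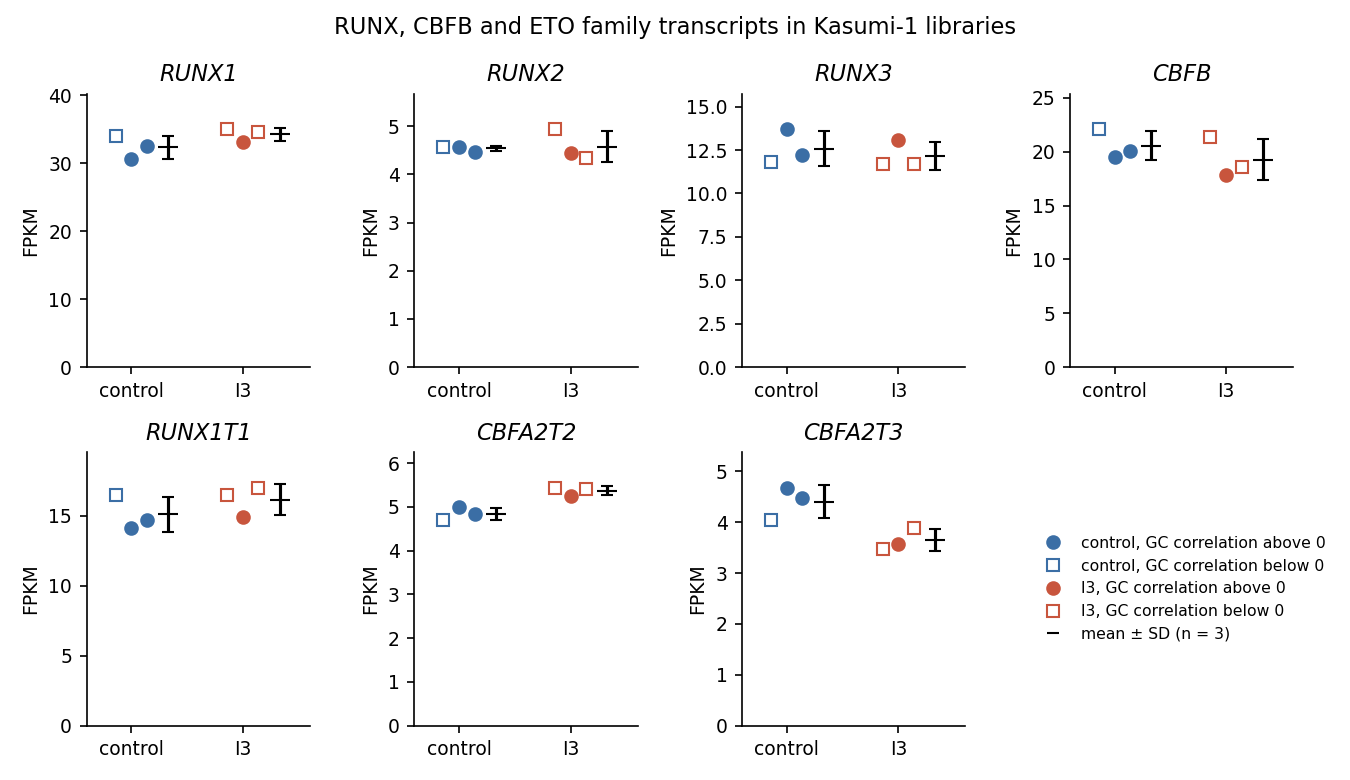
FPKM (linear axis from 0) of each member in the 3 control and 3 I3 libraries, with the mean ± SD beside them. Filled circles are libraries with a positive and open squares with a negative rank correlation with GC content. The groups lie apart for CBFA2T2 (control up to 4.99, I3 from 5.25 FPKM) and CBFA2T3 (control from 4.05, I3 up to 3.89 FPKM) and overlap for the other 5 members.

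RUNX1 (ENSG00000159216), which lies on the minus strand of chromosome 21 from 34787801 to 36004667 (GRCh38), was the most abundant member. Its level was 34.0, 30.6 and 32.5 FPKM in control 1, 2 and 3, and 35.0, 33.1 and 34.6 FPKM in I3 1, 2 and 3. Control 1 lay inside the range of the I3 libraries, so the groups overlapped, although control 2 was the lowest and I3 1 the highest of the 6. The mean was 32.4 ± 1.68 FPKM (SD, n = 3) without I3 and 34.2 ± 1.01 FPKM (SD, n = 3) with it. The log2 fold change was 0.082 (95% interval -0.06 to 0.22, limma adjusted p = 0.998), and the two-sided exact permutation p was 0.2. The 26680 control and 28702 I3 reads gave a ratio of reads per depth of 1.06 with an exact 95% interval of 1.04 to 1.08. That interval covers counting error only, which was 1.06% of a control library's value, whereas the control libraries differed by 5.19% (coefficient of variation). For RUNX1 the spread between libraries was thus larger than the error of counting.

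RUNX3 (ENSG00000020633), on chromosome 1 from 24899511 to 24965121, was the second α subunit in level. It had 11.8, 13.7 and 12.2 FPKM in control cells and 11.7, 13.1 and 11.7 FPKM after I3. The highest value of each group was in a library with a positive GC correlation, and the groups overlapped. The log2 fold change was -0.043 (95% interval -0.23 to 0.14, limma adjusted p = 0.998), and it turned to 0.019 without control 2 and to 0.011 once the GC trend of each library was removed.

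RUNX2 (ENSG00000124813), on chromosome 6 from 45328157 to 45664349 and best known as the regulator of osteoblast formation, had 4.58, 4.57 and 4.47 FPKM in control cells and 4.94, 4.44 and 4.35 FPKM after I3. The control libraries lay within the range of the I3 libraries. The log2 fold change was 0.0075 (95% interval -0.17 to 0.18, limma adjusted p = 0.999), with -0.043 without I3 1 and -0.0027 without control 3, and its sign also turned with median-of-ratios scaling (-0.0045), quantile normalization (-0.011) and removal of the GC trend (-0.019). The control libraries of RUNX2 differed by 1.36%, less than the 3.90% that counting alone gives at this depth.

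CBFB (ENSG00000067955), on chromosome 16 from 67029116 to 67101058, had 22.1, 19.5 and 20.1 FPKM in control cells and 21.4, 17.8 and 18.6 FPKM after I3. I3 1 lay above control 2 and control 3, while I3 2 and I3 3 lay below each control library. The mean was 20.6 ± 1.36 FPKM (SD, n = 3) without I3 and 19.3 ± 1.93 FPKM (SD, n = 3) with it, with a log2 fold change of -0.096 (95% interval -0.30 to 0.10, limma adjusted p = 0.998). Leaving out I3 1 moved it to -0.17 and leaving out I3 2 moved it to -0.042. CBFB has the lowest GC content of the members (40.5%). Between libraries of the same GC sign it differed by -0.14 on the log2 scale where the correlation was negative (1 control, 2 I3) and by -0.15 where it was positive (2 control, 1 I3).

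The 3 RUNX genes summed to 48.9 to 50.3 FPKM in control libraries and to 50.6 to 51.7 FPKM after I3. RUNX1 made up 62.6% to 67.5% of that sum in control cells and 65.3% to 68.4% after I3, RUNX3 made up 23.4% to 28.0% and 22.7% to 25.9%, and RUNX2 made up 9.10% to 9.36% and 8.59% to 9.55%. These ranges overlapped for each of the 3 genes. The summed FPKM of the RUNX genes stood at 2.28 to 2.51 times the CBFB level in control libraries. After I3 it stood at 2.41 to 2.85 times, with I3 1 inside the control range. The sum includes fusion transcripts under RUNX1, and a ratio of FPKM is not a ratio of subunits. CBFB stood at 0.651, 0.637 and 0.620 of the RUNX1 level in control 1, 2 and 3 and at 0.612, 0.537 and 0.536 in I3 1, 2 and 3. Each I3 ratio lay below each control ratio, by little for I3 1. This ratio was looked at after the values were known, and no test of it is given.

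RUNX1T1 (ENSG00000079102), on chromosome 8 from 91954967 to 92103286, gave 16.5, 14.1 and 14.7 FPKM in control cells and 16.5, 14.9 and 17.0 FPKM after I3. Control 1 was inside the range of the I3 libraries, and the groups overlapped. The mean was 15.1 ± 1.24 FPKM (SD, n = 3) without I3 and 16.1 ± 1.11 FPKM (SD, n = 3) with it. The log2 fold change was 0.093 (95% interval -0.10 to 0.28, limma adjusted p = 0.998) with an exact permutation p of 0.2. Leaving out control 1 moved it to 0.16 and leaving out control 2 moved it to 0.046. Behind these values stood 10820 control and 11749 I3 reads. An antisense gene overlaps 0.488% of its exon bases and had at most 5 reads in a library.

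To follow the partners of the fusion within each library, the RUNX1T1 level was divided by the RUNX1 level. The ratio was 0.485, 0.460 and 0.454 in control 1, 2 and 3 and 0.472, 0.449 and 0.490 in I3 1, 2 and 3. The lowest and the highest ratio were both in I3 libraries. The groups differed by 0.013 on the log2 scale (two-sided exact permutation p = 0.8), which was smaller than the SD of the log2 ratio in control cells (0.0508) and after I3 (0.0636). The difference changed sign without control 3 (-0.00603) and without I3 3 (-0.0173). FPKM divides by all annotated exons of a gene, 15574 bases for RUNX1 and 13535 bases for RUNX1T1, and a fusion transcript holds only some of them, so that the ratio is not the share of fused transcripts.

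Between libraries, RUNX1 and RUNX1T1 lay in the same relation to the GC split. Each was lower in the 3 libraries with a positive GC correlation than in the 3 with a negative one, with means of 32.1 against 34.5 FPKM for RUNX1 and 14.6 against 16.7 FPKM for RUNX1T1. RUNX3 went the other way, at 13.0 against 11.7 FPKM. Libraries of the 2 signs did not overlap for these 3 of the 7 members, where 30.3% of all tested genes were split in this way. With the GC trend removed, RUNX3 overlapped, while RUNX1 and RUNX1T1 still did not, where 19.7% of tested genes were split. Within libraries of a negative sign, I3 and control differed by 0.036 for RUNX1 and by 0.024 for RUNX1T1 on the log2 scale, and within those of a positive sign by 0.069 and 0.044.

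**Figure D2:**
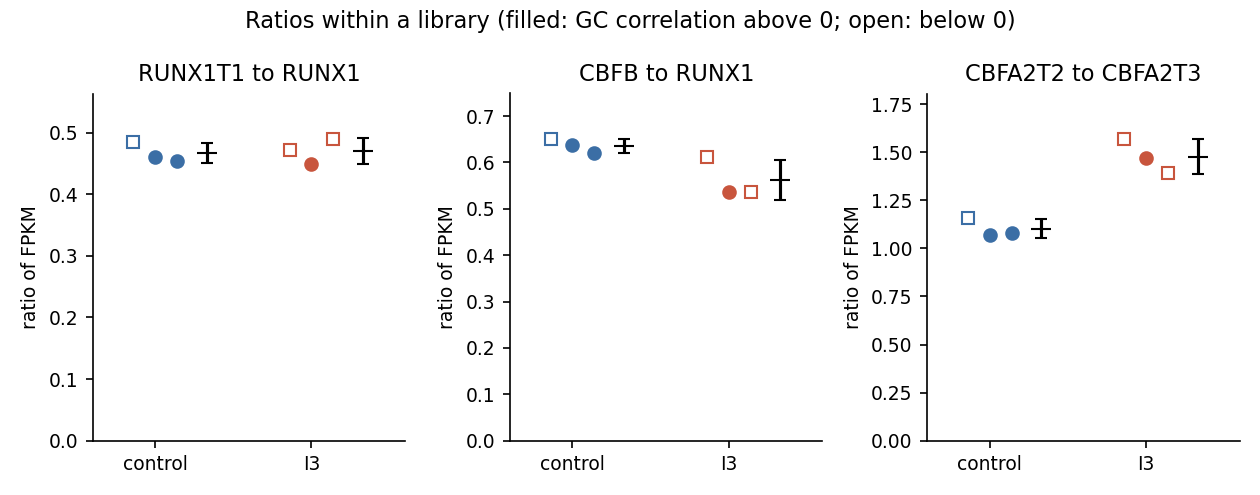
Ratio of FPKM values within a library (linear axis from 0) for RUNX1T1 to RUNX1, CBFB to RUNX1 and CBFA2T2 to CBFA2T3, with the mean ± SD of 3 libraries. The first ratio overlaps between the groups (0.454 to 0.485 and 0.449 to 0.490), while the third lies between 1.07 and 1.16 in control libraries and between 1.39 and 1.57 after I3. The gap in the third follows from the levels of both genes, which lay apart in opposite directions.

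CBFA2T3 (ENSG00000129993), the ETO family member known from hematopoietic progenitors and erythroid complexes with TAL1, lies on the minus strand of chromosome 16 from 88874858 to 88977204. It had 4.05, 4.68 and 4.48 FPKM in control cells and 3.48, 3.58 and 3.89 FPKM after I3. Each I3 library lay below each control library, with I3 3 and control 1 closest. The mean was 4.40 ± 0.321 FPKM (SD, n = 3) without I3 and 3.65 ± 0.217 FPKM (SD, n = 3) with it. The log2 fold change of -0.24 had a standard error of 0.0836 and a 95% interval of -0.44 to -0.04 (limma p = 0.0231, adjusted p = 0.942 over all genes tested, exact permutation p = 0.1). An exact p of 0.1 is the smallest that 3 against 3 libraries allow. The 1392 control and 1173 I3 reads gave a ratio of 0.829 with a counting interval of 0.767 to 0.897. Of all tested genes, 88.0% had a log2 fold change no larger than that of CBFA2T3 in either direction.

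The GC content of CBFA2T3 transcripts (64.4%) was above that of 95.5% of tested genes. Between libraries of a negative GC sign the level differed by -0.12 on the log2 scale (4.05 FPKM in control 1 and a mean of 3.69 FPKM in I3 1 and I3 3), and between those of a positive sign by -0.32 (a mean of 4.58 FPKM in control 2 and 3 and 3.58 FPKM in I3 2). With the GC trend removed, the log2 fold change was -0.17 and the groups overlapped, with 4.24 FPKM in I3 3 and 4.09 FPKM in control 1. An antisense gene overlaps 8.39% of the exon bases of CBFA2T3 and had at most 6 reads in a library.

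CBFA2T2 (ENSG00000078699), a corepressor of the same family that is expressed in many tissues, lies on chromosome 20 from 33490075 to 33650036. It had 4.71, 4.99 and 4.83 FPKM in control cells and 5.44, 5.25 and 5.42 FPKM after I3. Each I3 library lay above each control library. The mean was 4.84 ± 0.143 FPKM (SD, n = 3) without I3 and 5.37 ± 0.107 FPKM (SD, n = 3) with it. The log2 fold change was 0.14 with a standard error of 0.0644 and a 95% interval of -0.02 to 0.29 (limma p = 0.071, adjusted p = 0.998), and the exact permutation p was 0.1. Within libraries of a negative GC sign it differed by 0.19 and within those of a positive sign by 0.087 on the log2 scale. With the GC trend removed, the log2 fold change was 0.13 and the groups did not overlap, with at most 4.95 FPKM in control and at least 5.17 FPKM in I3 libraries. The share of all tested genes without overlap on that scale is not given, so whether this is unusual cannot be told.

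The CBFA2T2 level was 1.16, 1.07 and 1.08 times that of CBFA2T3 in control 1, 2 and 3, and 1.57, 1.47 and 1.39 times in I3 1, 2 and 3. The ranges did not overlap, which follows from the levels of the 2 genes, each apart between the groups and in opposite directions. With the GC trend removed, the ranges were 1.10 to 1.14 and 1.25 to 1.45. This pair was singled out after its values were seen, so the ratio is given without a test. CBFA2T3 made up 16.0% to 19.7% of the summed ETO family level in control libraries and 13.7% to 15.1% after I3, without overlap. CBFA2T2 made up 18.7% to 21.0% and 20.6% to 22.1%, and these ranges overlapped. RUNX1T1, whose level includes fusion transcripts, made up 59.3% to 65.3% and 62.8% to 65.0% of the sum, and these ranges overlapped.

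**Figure D3:**
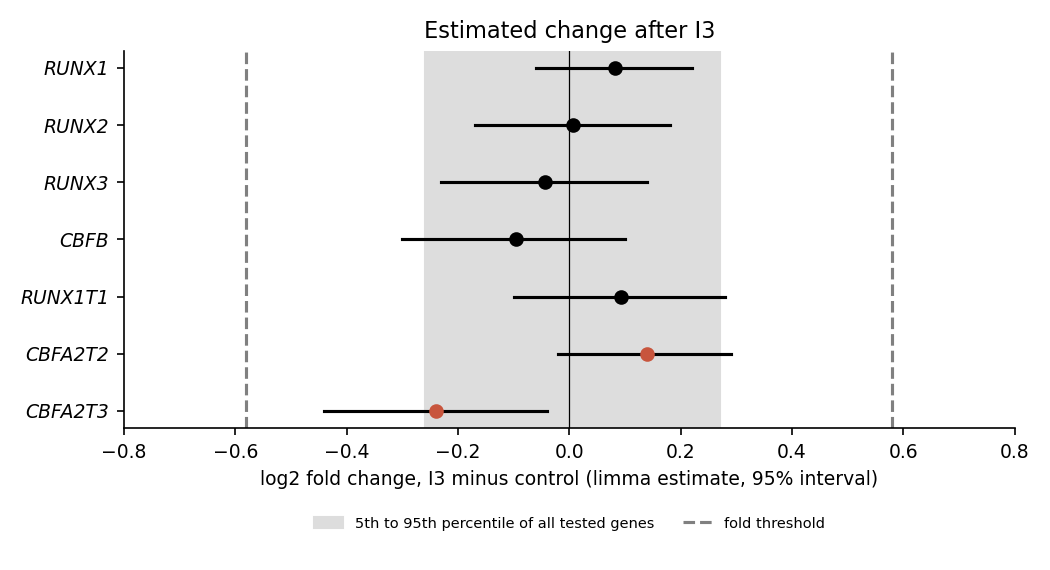
log2 fold change between I3 and control libraries for each member (points, limma estimate) with its 95% interval (lines). The shaded band runs from the 5th to the 95th percentile of the 12960 tested genes (-0.26 to 0.27), dashed lines mark the fold threshold of 0.58, and orange points are CBFA2T2 and CBFA2T3, whose groups did not overlap. All 7 points lie inside the band, and the interval of CBFA2T3 is the only one that does not include 0.

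As FPKM is per length, the members were ranked within a library by this measure. It divides by all annotated exons of a gene, and RUNX1 and RUNX1T1 include fusion transcripts. The ranks and folds are therefore of FPKM and not of transcript numbers. Over the 6 libraries the order of the mean levels was RUNX1 (33.3 FPKM), CBFB (19.9 FPKM), RUNX1T1 (15.6 FPKM), RUNX3 (12.4 FPKM), CBFA2T2 (5.11 FPKM), RUNX2 (4.56 FPKM) and CBFA2T3 (4.02 FPKM). RUNX1 was above 91.0% of the tested genes and CBFA2T3 above 43.3%. The order was read from these same libraries, so it is a description and no test of it is given. Of the 6 neighbouring pairs, 5 stood in this order in all 6 libraries. RUNX3 was 2.42 times CBFA2T2 and RUNX1 was 1.67 times CBFB, whereas RUNX1T1 came as close as 1.03 times RUNX3 in 1 library. RUNX2 and CBFA2T3 did not differ beyond their spread, with a mean log2 ratio of 0.19 and an SD of 0.201 over the 6 libraries. RUNX2 was the higher in 4 of 6 libraries, 1 of 3 control and 3 of 3 I3 libraries.

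Corepressors that ETO proteins recruit were examined next, since the members act through them. None of the 8 tested genes of the list passed the adjusted p (smallest 0.998) or an unadjusted p of 0.05, and 5 were higher and 3 lower, with a median log2 fold change of 0.015. The groups overlapped for each of them. TBL1XR1, a subunit of the NCoR complex, had the smallest p, with 15.8 ± 3.52 FPKM (SD, n = 3) without I3 and 17.9 ± 1.91 FPKM (SD, n = 3) with it. SIN3B, a scaffold of the SIN3 complexes, had 6.79 ± 0.559 and 6.42 ± 0.301 FPKM (SD, n = 3). HDAC1, a catalytic subunit of these complexes, had 44.8 ± 1.74 FPKM (SD, n = 3) without I3 and 45.3 ± 1.77 FPKM (SD, n = 3) with it. GPS2 was not tested, as it had at most 0.0183 FPKM.

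Transcription factors and bridging factors that act with RUNX1 or with the fusion protein gave 12 tested genes. Of these, 1 was higher and 11 were lower after I3 (median log2 fold change -0.067, against 0.0107 over all tested genes). The 11 ran from -0.41 (CEBPA) to -0.01 (ERG), and the share of all tested genes that were lower is not given. None of the 12 passed the adjusted p (smallest 0.768). At an unadjusted p under 0.05 there were 2 (where 4.93% of all tested genes were), LMO2 and LYL1, both part of the complex that the fusion protein forms with E proteins. LMO2, a bridging factor of that complex, had 44.4, 43.3 and 45.8 FPKM in control cells and 39.7, 37.0 and 33.5 FPKM after I3. This gave a log2 fold change of -0.28 (standard error 0.0708, limma adjusted p = 0.768). LYL1, a basic helix-loop-helix factor, had 105, 113 and 110 FPKM in control cells and 102, 95.5 and 76.0 FPKM after I3, with a log2 fold change of -0.27 (limma adjusted p = 0.998). The groups did not overlap for either gene, nor for TCF12, the E protein that was higher (16.5 to 17.4 FPKM in control, 17.8 to 19.0 FPKM in I3 libraries). These were 3 of the 12 tested genes, 1 higher and 2 lower, where 9.70% of all tested genes did not overlap. TCF4 and ETS1 were not tested.

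Among cofactors and enzymes that modify RUNX proteins, 17 genes were tested, 10 higher and 7 lower (median log2 fold change 0.026), with none past the adjusted p (smallest 0.980). At an unadjusted p under 0.05 there were 2, HIPK2 and CDK6, where 4.93% of all tested genes were. HIPK2, a kinase that phosphorylates RUNX1 and its coactivator p300, had 3.72, 3.95 and 3.91 FPKM in control cells and 4.26, 4.49 and 4.67 FPKM after I3 (log2 fold change 0.19, limma adjusted p = 0.980). CDK6, a cell cycle kinase that binds RUNX1, had 75.3 ± 8.06 FPKM (SD, n = 3) without I3 and 87.3 ± 6.32 FPKM (SD, n = 3) with it (log2 fold change 0.22, limma adjusted p = 0.998), and its groups overlapped. The groups did not overlap for 4 genes of the list, all higher after I3, where 5.06% of all tested genes were higher without overlap.

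Of genes described as repressed by the fusion protein, 6 were tested, 2 higher and 4 lower (median log2 fold change -0.063), with no p under 0.05 before adjustment. CEBPA and SPI1, both lower, also belong to the list of transcription factors above and are counted in each. NF1, a negative regulator of RAS, had 4.55 ± 0.127 FPKM (SD, n = 3) without I3 and 5.05 ± 0.261 FPKM (SD, n = 3) with it (limma adjusted p = 0.998). Of the 6 tested genes it was the 1 whose groups did not overlap, where 9.70% of all tested genes did not (5.06% higher). CEBPA, a factor of granulocytic differentiation, had 3.83, 4.46 and 4.15 FPKM in control cells and 3.67, 4.61 and 1.48 FPKM after I3, with I3 3 far below the other 5 libraries. The same library had the lowest SPI1 (63.2 FPKM, against 86.7 to 95.6 FPKM in the other 5). I3 3 was also the lowest library for LMO2 and LYL1, and its GC correlation was the most negative (-0.446). Whether these are linked was not tested, and no value with the GC trend removed is given for list genes. Of genes described as activated in cells with the fusion, 10 were tested, 5 higher and 5 lower (median log2 fold change -0.021), again with none under 0.05 before adjustment. ID1, an inhibitor of E proteins, had 19.2 ± 1.87 FPKM (SD, n = 3) without I3 and 16.0 ± 2.13 FPKM (SD, n = 3) with it (limma adjusted p = 0.998). POU4F1, a homeodomain factor typical of t(8;21) AML, had 5.67, 5.77 and 5.05 FPKM in control cells and 5.69, 3.94 and 3.69 FPKM after I3, with I3 1 inside the control range. The groups of both genes overlapped. Of the 10 tested genes 2 did not overlap, UBASH3B, a phosphatase that was higher (20.6 to 21.8 FPKM in control, 21.9 to 23.3 FPKM in I3 libraries), and TRH, a neuropeptide precursor that was lower (37.0 to 38.1 and 32.7 to 36.7 FPKM), where 9.70% of all tested genes did not overlap.

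**Figure D4:**
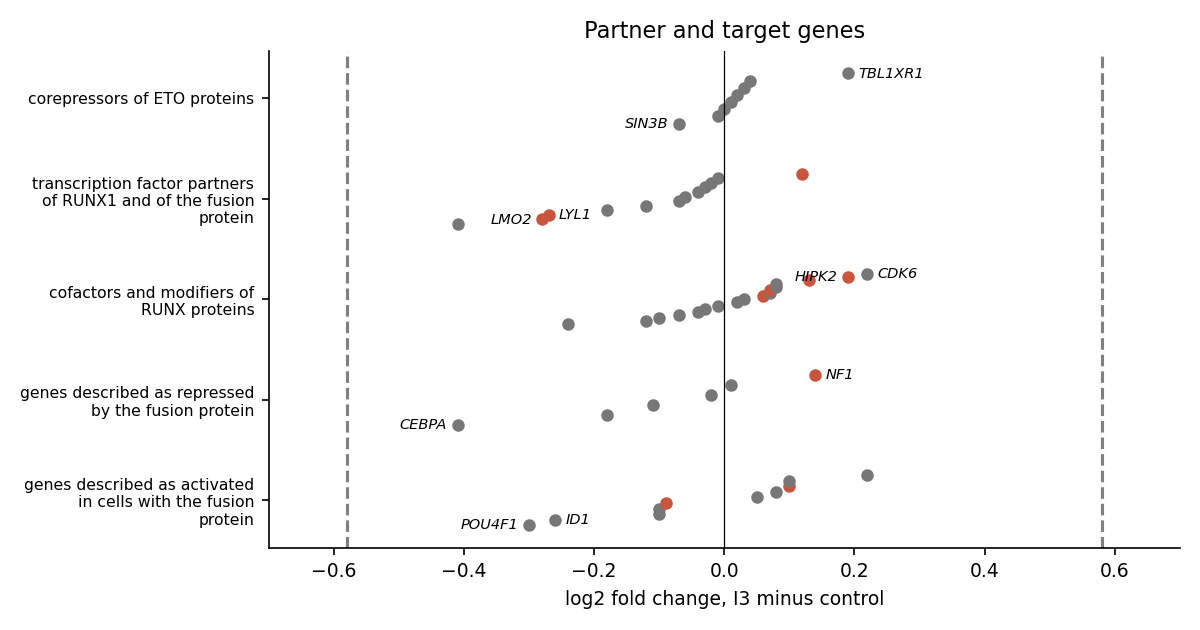
log2 fold change between I3 and control libraries for each tested gene of 5 lists of partner and target genes, with orange points for genes whose groups did not overlap and grey points for the others. The 2 genes with the smallest p in each list are named, dashed lines mark the fold threshold of 0.58, and all points lie inside it, between -0.41 and 0.22.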

How the data were processed

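mRNA-seq was available for 3 control and 3 I3 libraries of Kasumi-1 cells. The authors deposited FPKM values, 1 column per library, from stranded libraries of polyadenylated RNA. The submitters' processing notes name Trimmomatic, HISAT2, Cufflinks and HTSeq on hg38 without versions, and no source used here gives the annotation release. The file name writes the compound as I13, the labels as I3. Of the 29810 identifiers, 29703 were in GENCODE release 29 and 23487 had a symbol. Reads were rebuilt from FPKM and exon length, with 95.8% of 26519 genes whole within 0.1 read in all libraries. They show depth and counting error only, apart from voom as an alternative.

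The members and lists were chosen with earlier results of these data known. Groups were compared by limma 3.58.1 under R 4.3.3 (eBayes with trend) on log2(FPKM + 0.5), two-sided, without covariates, with Benjamini-Hochberg adjustment over 12960 genes. Fold changes on this scale understate changes of low genes. Exact permutation tests used Python 3.11.15 with scipy 1.17.1. All members are given, and of each list the 2 genes with the smallest p, with further genes named after their values were seen (HDAC1, TCF12, SPI1, UBASH3B, TRH). The alternatives were other pseudocounts (0.1 and 1), minimums (none and 1 FPKM), quantile normalization, median-of-ratios scaling, rescaling to TPM, lowess removal of the GC trend (span 0.3), no eBayes trend, the replicate number as a block, voom (at least 10 reads on average) and each library left out. The GC sign as a term was added after the data were seen. Replicate libraries were not copies of each other, with a chi-square per degree of freedom of at least 4.33. In the list of corepressors 1 gene is not reported here. The limma procedure was tested on simulated data with independent noise per gene, no GC trend and larger changes than any member showed. That test therefore does not cover the GC split or changes as small as those of the members.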

Additional observations from a re-analysis of the deposited data

How the results depend on the processing

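The log2 fold changes of RUNX1, CBFB, RUNX1T1, CBFA2T2 and CBFA2T3 had the same sign in each of 18 alternatives, and no member passed the adjusted p and the fold threshold in any. Part of this agreement was fixed in advance. Other minimums, no eBayes trend and the replicate block leave each estimate as it is. For CBFA2T2 and CBFA2T3, whose groups did not overlap, leaving out a library could not turn the sign. The ranges with single libraries left out were 0.043 to 0.12 for RUNX1, -0.17 to -0.042 for CBFB, 0.046 to 0.16 for RUNX1T1, 0.12 to 0.16 for CBFA2T2, -0.29 to -0.20 for CBFA2T3, -0.043 to 0.04 for RUNX2 and -0.095 to 0.019 for RUNX3. Removal of the GC trend moved CBFB from -0.096 to -0.15 (limma adjusted p = 0.846), and the GC sign as a term moved CBFB to -0.15, RUNX1 from 0.082 to 0.052 and RUNX1T1 from 0.093 to 0.034. The unadjusted p of CBFA2T3 was under 0.05 in 13 of 18 alternatives (0.0104 to 0.0919), and that of CBFA2T2 in 1 (0.0465 to 0.166). For CBFA2T3 the limma p was above 0.05 without control 2 (0.0806), control 3 (0.0678), I3 1 (0.0774) or I3 2 (0.0621). It was also above 0.05 with the GC trend removed (0.0919). The sign of RUNX2 turned with median-of-ratios scaling (-0.0045), quantile normalization (-0.011), removal of the GC trend (-0.019) and the GC sign as a term (-0.0047), and that of RUNX3 turned with removal of the GC trend (0.011) and with the GC sign as a term (0.0051). The difference in the log2 ratio of RUNX1T1 to RUNX1 ranged from -0.0173 to 0.0461 with single libraries left out. The difference in the log2 ratio of CBFA2T2 to CBFA2T3 moved from 0.419 to 0.293 once the GC trend was removed. The cause of these shifts was not tested.

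Over all genes, 0 were higher and 0 lower at the adjusted p, with 0 to 1 higher (1 without control 1) and 0 to 2 lower (2 without I3 1, 1 without I3 2) when single libraries were left out, and 0 in each other alternative, voom included. At the unadjusted p with the fold threshold, TPM gave 229 higher genes in place of 98 and 162 lower genes in place of 84, a pseudocount of 1 gave 62 higher and a minimum of 1 FPKM gave 44 higher. With single libraries left out these counts were 91 to 145 and 73 to 132 (132 without I3 1). Same-numbered libraries did not all deviate together (correlations of 0.0634, 0.151 and -0.0239), and control 1 correlated best with I3 3 (0.101), so the numbers were not taken as pairs. With the replicate number as a block, the log2 fold change of CBFA2T3 was -0.24 (limma adjusted p = 0.706), the difference in the ratio of RUNX1T1 to RUNX1 was 0.013, and no call changed. With 3 libraries a group, exact permutation tests cannot go below 0.1.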

Other observations

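The genes whose levels over the 6 libraries were most like those of RUNX1 among the 12959 other tested genes were GTF2H3 (Pearson r = 0.9968), PAPOLG (r = 0.9964) and FCF1 (r = 0.9891). For RUNX1T1 they were G3BP2 (r = 0.9974), LPCAT2 (r = 0.9969) and NAPG (r = 0.9950), and for CBFB they were ERO1A (r = 0.9957), CCDC117 (r = 0.9903) and SYF2 (r = 0.9900). RUNX1T1 ranked 196 in likeness to RUNX1 (r = 0.929), whereas CBFB ranked 5287 (r = 0.253) and RUNX3 was among the least alike (r = -0.873, rank 12548). These correlations are descriptions over 6 libraries that share the GC split given above, and the highest of many correlations over 6 points is high in any table of this size.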
